A study of Mus musculus with 8 samples.

Results

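The SR proteins and heterogeneous nuclear ribonucleoproteins (hnRNPs) are the RNA-binding proteins that steer the choice of splice sites. The set described here was a fixed list of 35 genes: 10 SR protein genes, 2 Tra2 genes, and 23 hnRNP and polypyrimidine-tract-binding (PTB) protein genes. All 35 were among the 21444 genes in the count tables, and all 35 were among the 10990 genes with enough reads to be tested. They held 246 of the 64258 annotated transcripts with counts. For each gene, the best-covered transcript (highest summed count across the 8 libraries) stood for the gene.

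RNA-seq libraries were made from primordial germ cells, the embryonic precursors of eggs and sperm, at E11.5. The 4 Control libraries came from Blimp1Cre;Prmt5flox/+ embryos and the 4 Prmt5 KO libraries from Blimp1Cre;Prmt5flox/flox embryos, all on a C57BL/6 and 129 mixed background. Both genotypes carried the Cre recombinase under Blimp1 and the dPE_Oct4 GFP reporter used to sort the cells, and the controls carried 1 floxed allele. Each library started from 50 pg of total RNA. The labels do not name the floxed exons of Prmt5, and Blimp1 is also active in other cells of the embryo. The labels do not say whether replicates came from separate embryos or litters, so p-values reflect only how these libraries varied, some of which may be technical.

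SR proteins bind exonic enhancers through RNA recognition motifs and recruit the splicing machinery with arginine- and serine-rich tails, whereas many hnRNPs bind silencers and oppose exon inclusion. Many of these genes limit their own output: excess protein promotes inclusion of a "poison" exon that carries an early stop codon, and the transcript is then removed by nonsense-mediated decay. Prmt5 is the main enzyme that places symmetric dimethyl marks on arginines, and splicing proteins are among its known substrates.

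Poison exons were looked for in the annotation as an exon lying between 2 exons that the coding transcript joins directly, and holding the stop codon of an annotated decay transcript. This gave 7 exons in 6 members. They are shown because they are the switch by which these 6 genes can make a decay transcript. Of the transcripts that hold them, those of Srsf3, Srsf6, Tra2b, Hnrnpl and Hnrnpll are compared with the coding transcript further on, while for Srsf11 another decay transcript is. Each sequence runs 5′ to 3′ on the strand of the gene from the first base of the exon to the early stop codon, which is in capitals, and comes from the GENCODE M21 transcripts on GRCm38.
Srsf3-201, chr17:29039454-29039909, plus strand: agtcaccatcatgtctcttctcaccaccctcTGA
Srsf6-201, chr2:162932815-162933082, plus strand: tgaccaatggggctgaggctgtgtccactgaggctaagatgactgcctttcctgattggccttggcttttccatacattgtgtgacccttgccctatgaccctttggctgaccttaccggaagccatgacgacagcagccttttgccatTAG
Tra2b-206, chr16:22258986-22259261, minus strand: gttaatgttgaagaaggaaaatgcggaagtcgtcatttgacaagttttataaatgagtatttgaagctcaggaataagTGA
Srsf11-212, chr3:158023243-158023359, minus strand: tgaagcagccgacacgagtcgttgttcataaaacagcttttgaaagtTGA
Srsf11-210, chr3:158024123-158024231, minus strand: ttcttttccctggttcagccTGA
Hnrnpl-213, chr7:28817335-28817404, plus strand: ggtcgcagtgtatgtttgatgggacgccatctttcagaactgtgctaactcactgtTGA
Hnrnpll-203, chr17:80044940-80045022, minus strand: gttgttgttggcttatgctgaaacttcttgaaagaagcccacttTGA

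The poison exon of Srsf3 was the longest, at 456 bases, and its stop codon ended 34 bases into the exon. The shortest was that of Hnrnpl, at 70 bases, with the stop ending at base 59. In the Tra2b transcript the stop lay 1015 bases before the last exon junction, and in Srsf11-212 it lay 67 bases before it. A stop well upstream of the last junction is the usual trigger of decay.

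Library totals ran from 1811433 to 6549498 gene counts, with 14398 to 17427 genes detected. Control 2 and Control 3 were the shallowest. Prmt5 itself stood at 137.5 ± 40.6 CPM (read counts scaled to a common library size, mean ± SD, n = 4) in Control, against 35.5 ± 6.49 CPM in Prmt5 KO (log2 fold change -1.95, edgeR adjusted p = 0.0388). All 14 germ cell markers were present, with a summed level of 3782 to 4324 CPM in Control and 3842 to 4683 CPM in Prmt5 KO. Somatic gonad markers summed to 208 to 317 CPM in Control and 246 to 942 CPM in Prmt5 KO, the highest value being that of Prmt5 KO 1, and each of the 14 markers had counts in at least 1 library. Vim and Mfge8 were the highest of them in every library but Prmt5 KO 1. There Acta2 stood at 207.7 CPM, against 2.71 to 7.13 CPM elsewhere. All of these markers but Mfge8 and Osr1 were highest in Prmt5 KO 1. Endothelial markers summed to 279 to 360 CPM in Control and 296 to 395 CPM in Prmt5 KO. Most of this was Pecam1, at 214.8 to 344.5 CPM. Tek ran from 4.46 to 72.4 CPM and Egfl7 from 1.74 to 18.8 CPM. Cdh5, Tie1, Emcn and Kdr stayed at or under 5.80 CPM in every library. Of the 8 blood markers 3 had no count in any library, and their sum stayed at or under 43.3 CPM. In bulk RNA of this kind, fewer cells of a type and less RNA per cell cannot be told apart.

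As a family, the members were among the more abundant messages of these germ cells. Together they took 1.67% ± 0.141 of the gene counts in Control (range 1.5002% to 1.8092%, n = 4) and 1.67% ± 0.0809 in Prmt5 KO (range 1.56% to 1.74%, n = 4), and the groups overlapped. By CPM per kilobase of the counted transcript, the median member lay at percentile 92.2 of the 10990 tested genes. The lowest count of any member in any library was 46.

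Hnrnpa1, which binds splicing silencers and shuttles to the cytoplasm, was the most abundant member, at 1169 ± 255 CPM per kilobase in Control and 1221 ± 134 in Prmt5 KO. Its mean over all libraries ranked 28 among the tested genes. Hnrnpa2b1, its close relative, followed at rank 43, then the poly-C binding Hnrnpk at rank 76 and Hnrnph1, which binds runs of G, at rank 95. Hnrnpf, Hnrnpc and Hnrnpm came next, at ranks 145, 154 and 159. Their mean levels over all libraries, 333.8, 324.0 and 317.3 CPM per kilobase, differed by less than the spread between libraries. With these lengths Srsf7 stood highest among the SR and Tra2 genes, at rank 209, followed by Tra2a at rank 215 and Srsf2 at rank 270. At the low end stood Hnrnpl, which binds CA repeats, at 6.69 CPM per kilobase over all libraries.

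The order per length depends on which transcript supplies the length. When the shortest transcript with at least 90% of the highest total was used instead, the level of 5 members moved by more than 1.5 times. Hnrnpr moved furthest, from 11.1 CPM per kilobase with a transcript of 21452 bases to 91.7 with one of 2543 bases, which took it from place 34 to place 19 among the members. Hnrnpd, an AU-rich element binding protein, moved from 47.5 to 188.8 CPM per kilobase. Srsf6 moved from 177.0 to 348.5 CPM per kilobase, to place 6 among the members and above Srsf7, which stayed at 250.5. The others were Srsf1, from 73.97 to 124.9, and Srsf5, from 38.6 to 72.97. Hnrnpa1, Hnrnpa2b1, Hnrnpk, Hnrnph1 and Hnrnpf held places 1 to 5 under both lengths.

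**Figure D1:**
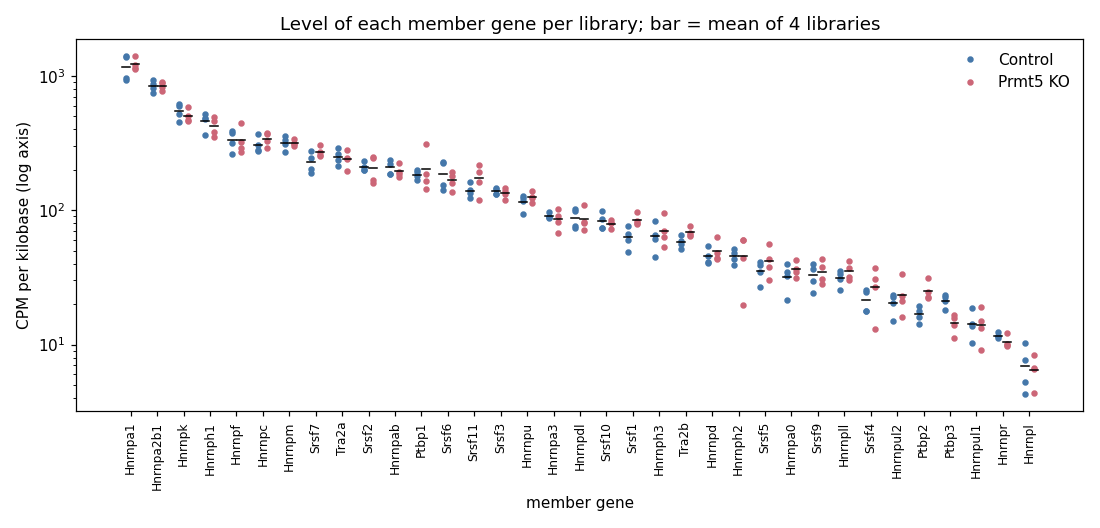
Level of each member gene in CPM per kilobase (log axis), with 1 point per library (blue, Control; red, Prmt5 KO) and a bar at the mean of the 4 libraries, ordered by the mean over all libraries. Hnrnpa1 stands highest and Hnrnpl lowest, and the 2 groups lie side by side for most genes.

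The effect of Prmt5 loss on the members was asked next. None of the 35 passed an adjusted p of 0.05 in edgeR's quasi-likelihood test, where 0.0273% of all tested genes did (3 of 10990). DESeq2 also called 0 of 35, against 0.974% of all genes. At an unadjusted p under 0.05 edgeR listed 3 members, or 8.57%, beside 8.15% of all tested genes, so the share was near the background. Of these, 2 were higher in Prmt5 KO, where 4.47% of all genes were, and 1 was lower, where 3.69% were. The median log2 fold change of the members was 0.02, beside 0.03 over all tested genes, and 19 of 35 lay above 0. The smallest adjusted p of any member was 0.475.

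The members were measured more tightly than most genes. Their median standard error was 0.167 on the log2 scale, beside 0.439 over all tested genes. For 32 of the 35, the 95% interval of the log2 fold change lay within 1 on either side of 0, which held for 33.6% of all tested genes, many of them far less abundant. The 3 members whose intervals reached further were Hnrnpl (-1.05 to 0.92), Ptbp2 (0.06 to 1.09) and Srsf4 (-0.34 to 1.00, its upper bound just over 1).

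**Figure D2:**
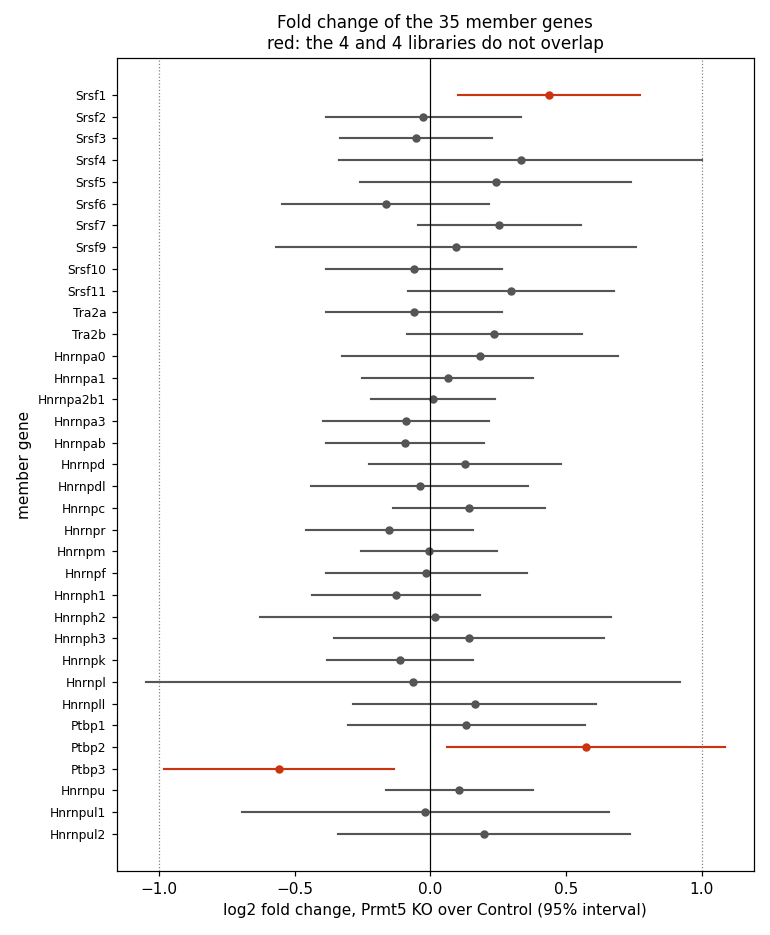
Log2 fold change of each member gene, Prmt5 KO over Control, as a point with its 95% interval from edgeR; dotted lines mark 1 on either side of 0. The intervals of 32 genes lie between the dotted lines, and Srsf1, Ptbp2 and Ptbp3 (red) are the genes whose libraries did not overlap between groups.

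For 3 genes the groups did not overlap: 2 members were higher in every Prmt5 KO library than in every Control library, where 2.63% of all tested genes were, and 1 was lower in every library, where 2.27% were. None passed the adjusted test. They are Srsf1, Ptbp2 and Ptbp3.

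Srsf1, the founding SR protein, which acts in both constitutive and regulated splicing, was read at 320.5, 359.4, 408.7 and 260.2 CPM in Control 1 to 4. Its Prmt5 KO levels were 431.3, 423.6, 445.5 and 523.9 CPM. Prmt5 KO 4 was the highest library and Control 4 the lowest, and the nearest values of the groups were Control 3 and Prmt5 KO 2. The means were 337.2 ± 62.8 and 456.1 ± 46.1 CPM (SD, n = 4 each), a log2 fold change of 0.44 (95% interval 0.10 to 0.77, edgeR adjusted p = 0.481). Over all alternatives the log2 fold change ran from 0.33 to 0.66, with adjusted p from 0.285 to 0.760. The counted transcript shares 98 exon bases with Gm11508 on the opposite strand, and no source used here states the strand setting of the counts.

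The PTB family bind pyrimidine-rich tracts and mostly repress nearby exons. Ptbp1 is the form of most dividing cells, Ptbp2 is best known from developing neurons and the testis, and Ptbp3 was first described in blood cells. In these germ cells Ptbp1 was the most abundant of the 3, at 193.3 CPM per kilobase over all libraries, beside 20.98 for Ptbp2 and 17.9 for Ptbp3.

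Ptbp3 was read at 159.9, 154.9, 144.3 and 124.0 CPM in Control 1 to 4, against 76.3, 96.3, 114.4 and 108.9 CPM in Prmt5 KO 1 to 4. Every Prmt5 KO library lay below every Control library, with Prmt5 KO 1 the lowest. The means were 145.8 ± 15.9 and 98.99 ± 16.9 CPM (n = 4 each), a log2 fold change of -0.56 (95% interval -0.98 to -0.13, edgeR adjusted p = 0.475). Alternatives gave -0.65 to -0.45, with adjusted p from 0.231 to 0.834. The counted transcript shares 207 exon bases with 1700018M17Rik on the opposite strand, a gene with at most 0.149 CPM in any library.

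Ptbp2 was read at 65.2, 47.8, 59.8 and 54.0 CPM in Control 1 to 4, against 83.1, 74.2, 105.0 and 75.5 CPM in Prmt5 KO 1 to 4. The groups did not overlap, and Prmt5 KO 3 was the highest library. The means were 56.7 ± 7.52 and 84.5 ± 14.3 CPM (n = 4 each), a log2 fold change of 0.57 (95% interval 0.06 to 1.09, edgeR adjusted p = 0.559). Alternatives gave 0.45 to 0.66, with adjusted p from 0.315 to 0.854.

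Ptbp1 showed no such separation. It was read at 595.5, 619.6, 557.4 and 521.7 CPM in Control 1 to 4, against 513.0, 451.1, 581.2 and 968.6 CPM in Prmt5 KO 1 to 4. Prmt5 KO 4 stood above all other libraries, and the other 3 Prmt5 KO libraries lay within or below the Control range. The log2 fold change was 0.13 (95% interval -0.31 to 0.57). Its exons share 178 bases with Plppr3 on the opposite strand, which was also highest in Prmt5 KO 4, at 68.8 CPM, and their part in the Ptbp1 value was not tested.

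Prmt5 KO 1 was the library with the most somatic gonad marker RNA. Without it the log2 fold change was 0.46 for Srsf1, 0.58 for Ptbp2 and -0.45 for Ptbp3, the last being the value nearest 0 among the alternatives for Ptbp3.

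**Figure D3:**
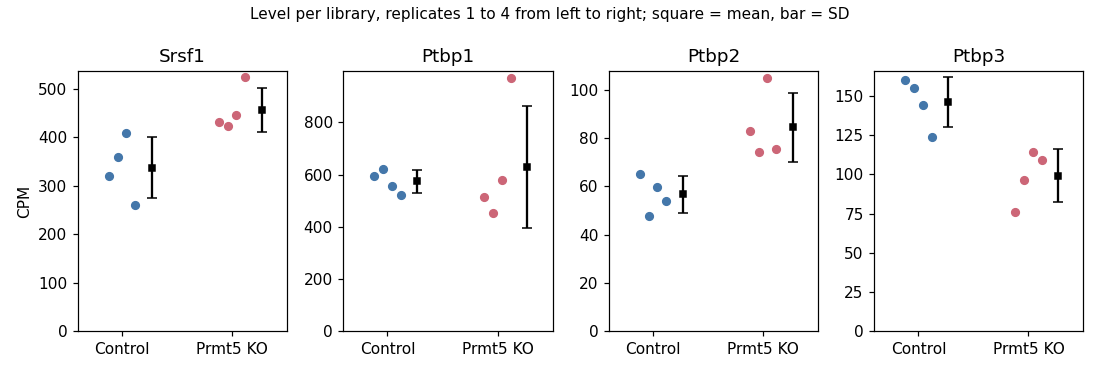
CPM per library of Srsf1, Ptbp1, Ptbp2 and Ptbp3, with replicates 1 to 4 from left to right in each group and a square with its SD bar at the mean. Srsf1 and Ptbp2 are higher and Ptbp3 lower in all 4 Prmt5 KO libraries, while Ptbp1 has 1 high library, Prmt5 KO 4, at 968.6 CPM.

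Among the other SR protein genes, Srsf7 came next by p. It was read at 558.6, 629.0, 467.4 and 436.6 CPM in Control 1 to 4, against 617.2, 697.8, 584.8 and 594.4 CPM in Prmt5 KO 1 to 4. The groups overlapped, since Control 2 lay above 3 of the Prmt5 KO libraries. The log2 fold change was 0.25 (95% interval -0.05 to 0.56).

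Srsf6 was read at 499.1, 812.9, 788.4 and 540.0 CPM in Control 1 to 4, against 559.3, 635.4, 676.0 and 481.8 CPM in Prmt5 KO 1 to 4. The 2 shallow Control libraries were the highest of all, and the groups overlapped. The log2 fold change was -0.16 (95% interval -0.55 to 0.22). Without Control 2 and 3 it was 0.18.

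The remaining SR protein genes had overlapping groups and log2 fold changes between -0.06 and 0.33. Srsf3, which regulates its own poison exon, averaged 364.6 ± 21.4 CPM across Control, against 351.3 ± 31.2 across Prmt5 KO. Srsf2, an enhancer-binding SR protein also known as SC35, was at 398.7 ± 30.6 and 391.3 ± 91.2 CPM. On the opposite strand it shares 460 exon bases with Mettl23, read at 204.7 to 283.6 CPM, and 288 with Mfsd11, at 2.49 to 23.8 CPM. The part of these genes in the Srsf2 value was not tested. Srsf10, which becomes a repressor when dephosphorylated, was at 253.6 ± 37.0 and 243.0 ± 15.2 CPM. Srsf4, Srsf5, Srsf9 and Srsf11 lay at log2 fold changes of 0.33, 0.24, 0.09 and 0.30. The values of Srsf4 and Srsf5 came from retained-intron transcripts. That of Srsf4 shares 1532 exon bases with Gm12992 on the opposite strand, which was read at 53.7, 64.3, 56.0 and 69.7 CPM in Control 1 to 4, against 30.2, 104.1, 80.5 and 73.8 CPM in Prmt5 KO 1 to 4. Srsf4 itself was likewise lowest in Prmt5 KO 1, at 40.2 CPM, and highest in Prmt5 KO 2, at 115.3 CPM, so with the strand unstated the reads of the 2 genes cannot be told apart. Tra2a and Tra2b, the mammalian counterparts of the fly splicing activator Transformer 2, had log2 fold changes of -0.06 and 0.24.

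Of the hnRNP genes outside the PTB family, the smallest p in the lower direction was that of Hnrnpr. It was read at 247.1, 265.6, 249.1 and 238.3 CPM in Control 1 to 4, against 218.3, 260.3, 213.5 and 208.4 CPM in Prmt5 KO 1 to 4. The libraries Prmt5 KO 1, 3 and 4 lay below all Control libraries and Prmt5 KO 2 lay among them. The log2 fold change was -0.15 (95% interval -0.46 to 0.16), and its exons share 715 bases with Gm27022 on the opposite strand.

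Log2 fold changes of the abundant hnRNP genes were small with all 8 libraries. Hnrnpa2b1 had a log2 fold change of 0.01 (95% interval -0.22 to 0.24), Hnrnpm one of -0.0043 (-0.26 to 0.25) and Hnrnpa1 one of 0.06 (-0.25 to 0.38). Hnrnpc, which binds uridine tracts, stood at 0.14, Hnrnpk at -0.11, Hnrnpf at -0.01 and Hnrnph1 at -0.13. Without the shallow libraries Control 2 and 3, Hnrnpa1 was at 0.37, and without Prmt5 KO 1 and 4 Hnrnph1 was at -0.33. Hnrnpu, also known as scaffold attachment factor A, averaged 884.4 ± 116 CPM across Control, against 952.1 ± 83.7 across Prmt5 KO, a log2 fold change of 0.11. Reads shared with processed pseudogenes of abundant hnRNP genes could not be separated.

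Among the others, Hnrnpa0, Hnrnpa3, Hnrnpab, Hnrnpd and Hnrnpdl had log2 fold changes of 0.18, -0.09, -0.09, 0.13 and -0.04. Those of Hnrnph3, Hnrnpll, Hnrnpul1 and Hnrnpul2 were 0.14, 0.16, -0.02 and 0.20. Hnrnph2 stood at 107.2 to 145.5 CPM in Prmt5 KO 1 to 3 and at 47.6 CPM in Prmt5 KO 4, the lowest library of all 8, with a log2 fold change of 0.02. In all, 13 members had exons overlapping another annotated gene. Hnrnpab shares 499 exon bases with Phykpl on the opposite strand, which was read at 123.3 to 198.2 CPM.

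**Figure D4:**
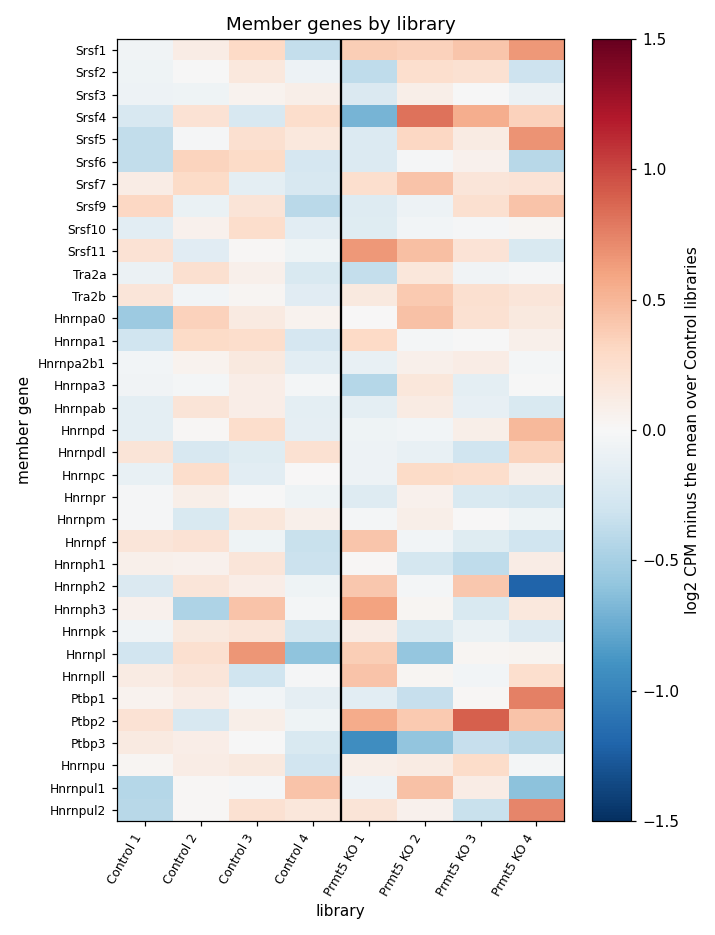
Log2 CPM of the 35 member genes in each of the 8 libraries, minus the mean over the 4 Control libraries, with red above and blue below. Srsf1 and Ptbp2 are red and Ptbp3 blue across the Prmt5 KO columns, and the darkest square of the map is Hnrnph2 in Prmt5 KO 4.

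The transcripts of each member were tested next. The members had 124 coding transcripts, 30 decay transcripts in 18 genes, 58 with a retained intron in 19 genes and 34 other processed ones in 10 genes. Counts of transcripts of 1 gene share reads: among 134 pairs in which 1 member transcript lay wholly within another, the shorter never had the higher count in any library. Of the 239 tested, edgeR called 0, where 0.00284% of all tested transcripts were called, and DESeq2 called 0, where 1.1% were. At an unadjusted p under 0.05 edgeR listed 9, beside 7.99% of all transcripts: 5 were higher in Prmt5 KO, where 3.92% of all were, and 4 lower, where 4.06% were. Groups did not overlap for 4 transcripts higher in Prmt5 KO, where 2.23% of all transcripts were, and for 2 lower ones, where 2.75% were. The median log2 fold change was -0.03 for coding, 0.06 for decay, 0.03 for retained-intron and -0.11 for other processed transcripts.

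All 6 tested Srsf1 transcripts had a log2 fold change above 0. The retained-intron transcript Srsf1-203 was read at 106.3, 126.3, 153.6 and 79.5 CPM in Control 1 to 4, against 164.6, 145.3, 150.4 and 226.8 CPM in Prmt5 KO 1 to 4. The groups overlapped through Control 3 (log2 fold change 0.57, edgeR adjusted p = 0.562). The decay transcript Srsf1-204 was read at 59.5, 73.2, 77.4 and 61.0 CPM in Control 1 to 4, against 80.7, 79.6, 91.8 and 87.7 CPM in Prmt5 KO 1 to 4. Its groups did not overlap (log2 fold change 0.33, edgeR adjusted p = 0.759). The coding Srsf1-202 was read at 63.2, 89.7, 93.8 and 48.2 CPM in Control 1 to 4, against 95.6, 98.2, 97.0 and 155.5 CPM in Prmt5 KO 1 to 4. Its groups did not overlap either, though Control 3 and Prmt5 KO 1 were close (log2 fold change 0.61, edgeR adjusted p = 0.593). Srsf1-205 is the transcript that stood for the gene above, as are Ptbp2-201 and Ptbp3-201. Since these transcripts share reads, they are not separate observations of Srsf1.

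The 2 long Ptbp3 transcripts, Ptbp3-201 and Ptbp3-212, had nearly the same level in each library, with log2 fold changes of -0.56 and -0.55. Ptbp3-212 was read at 158.7, 154.0, 143.7 and 122.6 CPM in Control 1 to 4, against 76.3, 95.3, 114.1 and 108.9 CPM in Prmt5 KO 1 to 4, with no overlap. The shorter Ptbp3 transcripts were far lower. Ptbp3-202 was read at 3.72, 28.6, 32.9 and 14.2 CPM in Control 1 to 4, against 2.70, 9.50, 18.3 and 12.7 CPM in Prmt5 KO 1 to 4, lowest in Control 1 and Prmt5 KO 1.

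The decay transcript Hnrnpr-206 was read at 47.7, 50.9, 53.2 and 37.1 CPM in Control 1 to 4, against 27.4, 40.7, 29.8 and 14.95 CPM in Prmt5 KO 1 to 4. The groups overlapped through Prmt5 KO 2 (log2 fold change -0.74, 95% interval -1.46 to -0.02, edgeR adjusted p = 0.610). Hnrnpr-205, a coding transcript over much the same region, had a log2 fold change of -0.72. The longest Hnrnpr transcript, the gene value, was at -0.15.

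Whether non-coding forms took a different share of a gene's reads was asked with the ratio of the highest non-coding transcript to the highest coding one. The 22 members with such a pair gave 0 calls in limma, where 0.0% of 4075 genes were called, and 1 at an unadjusted p under 0.05, where 6.21% were (2.82% higher and 3.39% lower). With edgeR and the coding count as an offset, 0 of 22 were called and 1 had an unadjusted p under 0.05. None of the 22 had groups that did not overlap, beside 1.82% higher and 1.94% lower over all pairs. Srsf1 was not among the 22, so the share of its retained-intron and decay transcripts was not tested. Most pairs share many of their bases, so reads from shared exons enter both counts of the ratio. The coding transcript can also hold bases that the non-coding one lacks. Whether coverage of those bases moved a ratio was not tested.

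Hnrnpu had the smallest p. Its decay transcript Hnrnpu-206 was read at 81.9%, 80.6%, 78.5% and 76.5% of the coding count in Control 1 to 4, against 76.7%, 76.1%, 75.2% and 74.6% in Prmt5 KO 1 to 4. Control 4 fell inside the Prmt5 KO range, and the other 3 Control libraries lay above it. The means were 79.4% ± 2.37 and 75.7% ± 0.929 (n = 4 each), a log2 ratio change of -0.07 (limma adjusted p = 0.641). Of the 2844 bases of this transcript 267, or 9.39%, were not in the coding one. The coding Hnrnpu-201 has 7640 bases, of which 2577 are shared, so most of its bases lie outside the decay transcript.

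Hnrnpdl, which regulates its own decay transcript, had the widest gap of means among the decay transcripts. Hnrnpdl-201 was read at 87.4%, 80.3%, 78.9% and 76.0% of the coding count in Control 1 to 4, against 59.3%, 62.7%, 71.6% and 81.7% in Prmt5 KO 1 to 4. The libraries Prmt5 KO 1 to 3 lay below all Control libraries, and Prmt5 KO 4 was second highest of all 8. The log2 ratio change was -0.24 (95% interval -0.49 to 0.01, limma adjusted p = 0.787), with 795 bases not shared with the coding transcript.

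Tra2b-206, the transcript with the poison exon printed above, was read at 50.2%, 48.0%, 54.9% and 55.0% of the coding count in Control 1 to 4, against 50.3%, 42.6%, 42.0% and 51.6% in Prmt5 KO 1 to 4. The groups overlapped. The log2 ratio change was -0.16 (95% interval -0.37 to 0.04, limma adjusted p = 0.871). The 276 bases of the poison exon were the only ones of Tra2b-206 not in the coding transcript. The coding transcript has 3403 bases, of which 1411 are shared, so its count also takes reads from bases that Tra2b-206 lacks.

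In the higher direction, the retained-intron transcript Hnrnpr-211 was read at 67.9%, 72.6%, 65.0% and 70.5% of the coding count in Control 1 to 4, against 73.0%, 72.1%, 73.0% and 81.2% in Prmt5 KO 1 to 4. The groups overlapped through Control 2 and Prmt5 KO 2 (log2 ratio change 0.12, limma adjusted p = 0.786). Hnrnph1-205 and Srsf4-201 followed, each with a log2 ratio change of 0.02. Hnrnph1-205 was read at 94.2%, 94.6%, 93.9% and 94.0% of the coding count in Control 1 to 4, against 97.0%, 94.1%, 97.5% and 94.2% in Prmt5 KO 1 to 4. Srsf4-201 was read at 99.7%, 99.4%, 98.1% and 99.8% of the coding count in Control 1 to 4, against 101.3%, 100.3%, 100.6% and 99.7% in Prmt5 KO 1 to 4. Both pairs of groups overlapped.

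With decay transcripts alone, 14 members had a pair and limma called 0, where 0.0% of 1004 genes were called. Hnrnpu was the 1 member with an unadjusted p under 0.05, where 5.58% of all pairs were (1.89% higher and 3.69% lower). All 14 had overlapping groups, where 1.39% of all pairs were higher and 1.79% lower without overlap. The ratios of the other poison exon genes were nearly level between groups. Most bases of these decay transcripts are shared with the coding transcript, 2138 of 2594 in Srsf3-201 and 1398 of 1666 in Srsf6-201. A level ratio therefore does not show that use of the poison exon was unchanged. Srsf3-201 was at 86.8% ± 1.95 of the coding count in Control and 88.3% ± 3.13 in Prmt5 KO, and Srsf6-201 at 93.5% ± 1.88 and 92.6% ± 2.31. Hnrnpl-213 and Hnrnpll-203 were at 98.4% and 99.7% in Control and at 98.1% and 99.7% in Prmt5 KO, with 3.78% and 3.03% of their bases in the poison exon. Srsf11-206, a further decay transcript of Srsf11, was at 18.7% ± 3.07 and 17.9% ± 4.14.

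**Figure D5:**
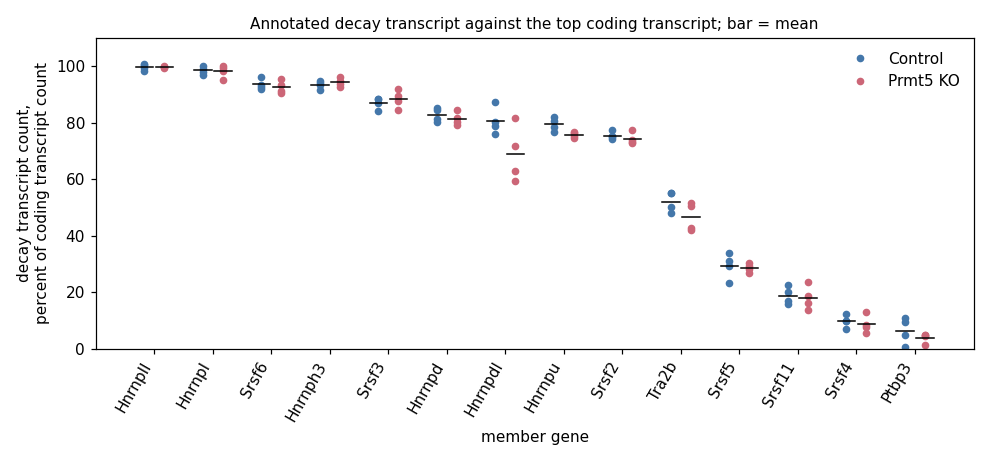
Count of the annotated decay transcript as a percentage of the count of the highest coding transcript, for the 14 members with a tested pair. Each library is 1 point, and a bar marks the mean. Hnrnpdl shows the widest gap between the bars, with Prmt5 KO from 59.3% to 81.7%, and most genes lie level between groups.

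Genes that act on or beside the members were examined as 4 lists, and edgeR called 0 genes in each of them, where 0.0273% of all tested genes were called. DESeq2 called 1 gene of these lists, Clk2, where 0.974% of all tested genes were called. Of 9 tested SR protein kinases and phosphatases, 1 had an unadjusted p under 0.05, where 8.15% of all tested genes did. It was Clk2, a kinase of the SR domain. Clk2 was read at 54.9, 35.7, 56.0 and 28.8 CPM in Control 1 to 4, against 108.9, 74.0, 71.7 and 131.8 CPM in Prmt5 KO 1 to 4. The groups did not overlap (log2 fold change 1.14, edgeR adjusted p = 0.296, DESeq2 adjusted p = 0.0321). Those of Prpf4b, another kinase of splicing proteins, did not overlap either, at 65.6 to 104.6 CPM in Control, against 111.2 to 132.4 CPM in Prmt5 KO (log2 fold change 0.41, edgeR adjusted p = 0.659). Over all tested genes 2.63% were higher without overlap. Of 21 tested SR-related proteins, 2 had an unadjusted p under 0.05 (9.52%, near the 8.15% of all tested genes), both higher, and 19 had a log2 fold change above 0, where 52.7% of all tested genes did. Srek1 had the smallest p of these (log2 fold change 0.78, edgeR adjusted p = 0.481).

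Of 40 other tested splicing regulators, 2 were higher at an unadjusted p under 0.05 and 0 lower, where 4.47% and 3.69% of all tested genes were. Rbm17, a factor of 3′ splice site choice, had the smallest p (log2 fold change 0.76, edgeR adjusted p = 0.409). Of 18 tested nonsense-mediated decay factors, 1 was higher and 1 lower at that threshold, against the same 4.47% and 3.69%. Rbm8a, a core subunit of the exon junction complex, was read at 180.0, 180.8, 183.8 and 177.0 CPM in Control 1 to 4. In Prmt5 KO 1 to 4 it stood at 99.6, 131.0, 107.0 and 143.1 CPM. Every Prmt5 KO library lay below every Control library, where 2.27% of all tested genes were lower without overlap (log2 fold change -0.59, edgeR adjusted p = 0.409).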

How the data were processed

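The authors deposited whole-number read counts per transcript, 1 table per library, as the values show. The build GRCm38 (mm10) is per the submitters' processing notes. No source used here names the aligner, counter, annotation release or strand. Of 66262 transcript identifiers, 64258 (97.0%) matched GENCODE M21. One transcript, the best covered, stood for each gene, since transcripts share reads.

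Genes were filtered with filterByExpr (minimum count 10, minimum total 15), scaled by TMM and tested with edgeR 4.0.16 (quasi-likelihood, robust) over all 8 libraries, with Benjamini-Hochberg adjustment at 0.05 over all genes. Transcripts were tested likewise. Ratios were log2 values with a pseudocount of 0.5, for pairs with a mean count of at least 10 and at least 30 unshared bases, tested with limma 3.58.1. Pairs with identical counts in every library were left out, a step added after seeing the data. DESeq2 1.42.0 was an alternative (R 4.3.3). CPM used TMM-scaled totals. On simulated data, 32% of 2-fold and 89% of 4-fold changes were recovered among 10728 genes, 20% and 81% among 34192 transcripts, and 61.6% and 78% among 3992 ratios. The changes were set in a random draw of well-read genes and transcripts and of ratios, not in the members as such. In the simulated ratios the change was applied to the whole non-coding count, reads from shared bases included. Recovery of a change in the unshared bases alone was therefore not measured.

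The members and lists were chosen with earlier results of these data known. Every member is named. Library values are given for members called or not overlapping, and for the 3 with the smallest p in each direction, for transcripts and ratios likewise. From each related list the gene with the smallest p is named. Ptbp1, Hnrnph2, Ptbp3-202 and Prpf4b, and the per-library values of Gm12992, fall outside that rule and were chosen after their values were seen.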

Additional observations from a re-analysis of the deposited data

Results flagged for a closer look

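In groups of 4, a library was singled out where its gap to the nearest other exceeded the share of the group's range set by Dixon's 95% critical value. This held for 3 of 116 groups, where chance gives about 5.8. The ratio of the highest non-coding to the highest coding count of Hnrnpk was 60.3% in Control 1, below 62.9% to 63.3% in the other Control libraries. That of Hnrnpr was 81.2% in Prmt5 KO 4, above 72.1% to 73.0% in the other Prmt5 KO libraries. That of Ptbp3 was 1.11% in Prmt5 KO 1, below 4.35% to 4.68% in the other Prmt5 KO libraries. It rested on 5 non-coding counts, and Control 1 was lower still, at 0.634% with 6 counts.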

How the results depend on the processing

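No member gene, transcript or ratio was called under any alternative run. The median log2 fold change of the member genes ran from 0.01 to 0.16 over the alternatives. It ran from 0.02 to 0.09 when each library was left out in turn. Over all genes, 3 were called in the reported fit, 107 with DESeq2, 7 with no filter, 1 with sums of transcripts, 0 without Control 2 and 3, 1 without Prmt5 KO 1 and 4, and 1 to 2 when each library was left out in turn. Over all transcripts, 1 was called, against 387 with DESeq2, 37 with no filter, 0 without Control 2 and 3, 0 without Prmt5 KO 1 and 4, and 1 to 5 leaving out each library. Member transcripts with an unadjusted p under 0.05 numbered 9, against 17 without Prmt5 KO 1 and 4 and 4 (without Control 4) to 14 (without Prmt5 KO 1) leaving out each library. Member ratios under that p numbered 1, against 0 without Control 2 and 3, 2 without Prmt5 KO 1 and 4, and 1 to 3 (without Prmt5 KO 4) leaving out each library. The cause was not tested. The labels do not say whether the replicate numbers pair the samples. Same-numbered libraries correlated at 0.0732, 0.0421, -0.000869 and 0.0558 for numbers 1 to 4, and none of the 4 pairs passed the chosen bar of 0.1. Differently numbered libraries correlated between -0.0930 and 0.0357, all below the values of numbers 1, 2 and 4. A bar of this kind cannot exclude a weak pairing. With the replicate block, 1 gene was called over all genes and 0 members. The sign of the log2 fold change changed in at least 1 alternative for 22 of 35 members, none larger than 0.198 in the reported fit, and for 14 of 22 ratios. Hnrnpa1 moved to 0.37 without Control 2 and 3, and Hnrnph1 to -0.33 and Srsf2 to 0.24 without Prmt5 KO 1 and 4. The counts cannot isolate reads that fall in a poison exon alone. In simulated data, 2-fold changes set over the whole table, not in the members as such, were often missed.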
